A study of Mus musculus with 2 samples.

Results

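The 150 cells described here were taken from a library of mouse embryoid body (EB) cells by their summed level of 5 genes. These were Tbx6, Rspo3, Hoxb1, Crabp1 and Cited1, used here together as markers of posterior and paraxial mesoderm. Whether each of the 5 is particular to that tissue was not tested. Each EB cell was given a score, the mean over the 5 genes of ln(1 + UMIs per 10000 UMIs of the cell), and the 150 highest of 1878 EB cells are called score-high cells below. A UMI (unique molecular identifier) stands for 1 captured transcript. The other 1728 EB cells are the set they are compared with. The study holds 1 other library, of yolk sac (YS) cells, and the 2 libraries together gave 2653 cells.

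The EB cells came from C57BL/6 mouse embryonic stem cells that had been taken off their feeder layer and left to form floating aggregates in medium with serum and ascorbic acid for 4 days, conditions that the labels call favourable to hemangiogenic mesoderm. The YS cells came from C57BL/6 yolk sacs of embryos at 2 stages, E9.5 and E10.5, in equal numbers, with about 70% of the Ter119-positive red cells sorted out. Both suspensions were frozen, thawed, sorted for live cells and loaded on the 10x Genomics Chromium system. With 1 library per group there was no replicate, and all 150 cells share 1 culture, so nothing was tested for significance. The intervals are 95% intervals for counting error only (exact Poisson for levels, exact conditional binomial for ratios, Clopper-Pearson for shares of cells).

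Paraxial mesoderm lies beside the neural tube and is cut into somites. It arises from the primitive streak and the caudal epiblast, where T, CDX factors, WNT and FGF signals act, and TBX6 then holds cells to a paraxial rather than a neural fate while a clock of Notch and WNT genes (Dll1, Dll3, Lfng, Hes7, Msgn1, Mesp2) times segmentation. Lateral plate and cardiac mesoderm leave the same streak and are known by Hand1, Isl1 and Foxf1. Hox genes are switched on in order along each cluster in these tissues, the low-numbered ones first. Among the score genes, Tbx6 encodes a T-box factor, Rspo3 a secreted amplifier of WNT signalling, Hoxb1 a homeobox factor of the first Hox group, Crabp1 a protein that binds retinoic acid in the cytoplasm and Cited1 a transcriptional coactivator.

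In mm10 coordinates Tbx6 (ENSMUSG00000030699) lies at chr7:126781483-126785560 on the plus strand, Hoxb1 (ENSMUSG00000018973) at chr11:96365752-96368256 on the plus strand, Rspo3 (ENSMUSG00000019880) at chr10:29452416-29535867 on the minus strand, Crabp1 (ENSMUSG00000032291) at chr9:54764748-54773110 on the plus strand and Cited1 (ENSMUSG00000051159) at chrX:102247381-102252181 on the minus strand. The stretches of 250 bases before the RefSeq start of 3 genes are printed from RefSeq (GRCm38.p6), 5′ to 3′ on the strand of the gene. Tbx6 and Hoxb1 are shown because they chose the cells and because their windows hold TGATNNAT, the form that PBX and HOX proteins are known to bind together, a type of site known upstream of Hoxb1. Isg15 is shown because its level was concentrated in a few of the cells (below), and its window holds GAAANNGAAA, the form of interferon response elements. Both strands were searched and capitals mark the matches.
Tbx6 (chr7:126781233-126781482, plus strand): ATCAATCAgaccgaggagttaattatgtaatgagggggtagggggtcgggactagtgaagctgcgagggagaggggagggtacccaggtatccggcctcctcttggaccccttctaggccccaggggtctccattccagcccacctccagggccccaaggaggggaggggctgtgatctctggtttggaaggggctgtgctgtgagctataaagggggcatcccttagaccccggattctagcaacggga
Hoxb1 (chr11:96365508-96365757, plus strand): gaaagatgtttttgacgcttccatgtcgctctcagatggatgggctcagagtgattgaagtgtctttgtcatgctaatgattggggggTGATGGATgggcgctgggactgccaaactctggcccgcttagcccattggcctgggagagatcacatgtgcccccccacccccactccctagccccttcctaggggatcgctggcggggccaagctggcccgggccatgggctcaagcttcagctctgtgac
Isg15 (chr4:156200819-156201068, minus strand): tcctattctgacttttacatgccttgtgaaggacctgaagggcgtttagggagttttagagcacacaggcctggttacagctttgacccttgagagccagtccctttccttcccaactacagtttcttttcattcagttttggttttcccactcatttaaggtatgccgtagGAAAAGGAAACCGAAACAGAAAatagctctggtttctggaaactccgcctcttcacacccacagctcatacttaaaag

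TGATNNAT was found in 7.68% of 32851 such windows, and among the 4 score genes with a window it was in those of Hoxb1 and Tbx6. In Isg15 there were 3 overlapping matches to GAAANNGAAA, a form found in 2.98% of the windows. A match describes these letters and is not a measured site.

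The values that chose the cells are given as a description. The score ran from 0.547 to 1.297 in score-high cells, with a median of 0.662, and from 0 to 0.546 in the other EB cells, with a median of 0.178 and 287 cells at 0. There was no gap at the threshold. The last 5 cells inside scored 0.552, 0.548, 0.547, 0.547 and 0.547, and the first 5 outside scored 0.546, 0.546, 0.545, 0.544 and 0.543. Within 0.05 of the threshold lay 41 score-high cells and 52 other cells. All 5 genes were seen in 20 score-high cells, 4 in 46, 3 in 59 and 2 in 25, so most score-high cells lacked at least 1 of the genes at this depth. Among the other EB cells, 7 held all 5 genes and 78 held 4.

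**Figure D1:**
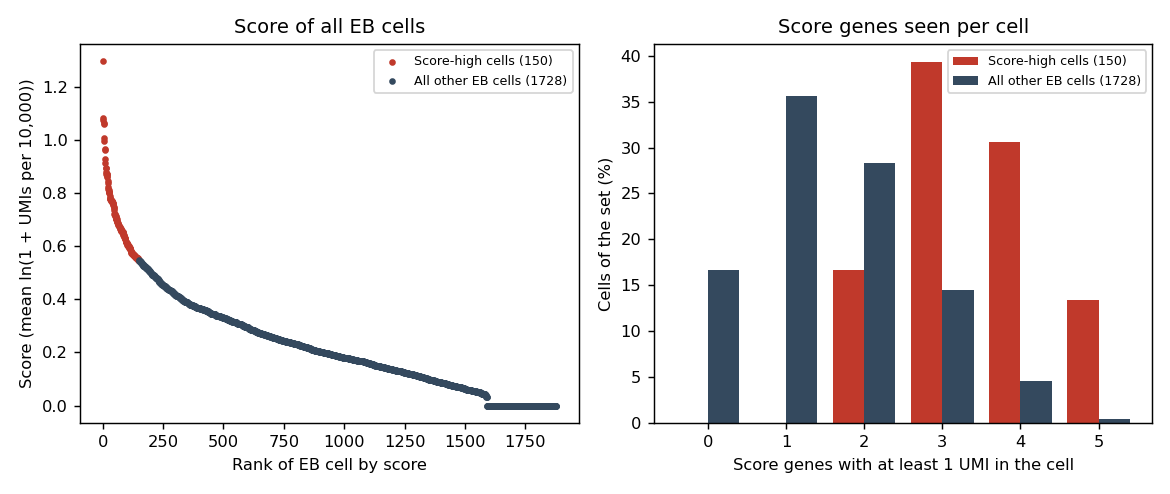
The left panel plots the score of every EB cell (mean ln(1 + UMIs per 10,000)) against its rank, and the right panel the percentage of cells in which 0 to 5 of the score genes had at least 1 UMI. The score falls without a step at the edge of the 150 cells, where it is 0.547 inside and 0.546 outside, and 20 of the 150 cells held all 5 genes.

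Rspo3 gave the largest part of the score. It was seen in 148 of the 150 cells, was the largest of the 5 terms in 109 and gave 42.6% of the summed score, against 22.8% for Cited1, 14% for Crabp1, 13.6% for Hoxb1 and 6.98% for Tbx6. Levels below are CPM, UMIs summed over the cells of a set and scaled so that every set has the same total. Tbx6 stood at 35.5 CPM in score-high cells and 6.73 CPM in the others. It had at least 1 UMI in 67 score-high cells, where single cells reached 418 CPM, and the median score-high cell had none. Rspo3 was at 368 CPM in score-high cells and 97.3 CPM in the others, with a median cell of 351 CPM and 57.7 CPM. Hoxb1 was at 85.0 CPM and in 90 of the score-high cells, and at 13.4 CPM in the others. For Crabp1 the levels were 103 CPM, in 89 score-high cells, and 19.5 CPM in the others. A single score-high cell reached 2122.5 CPM of Crabp1. Cited1 was at 175 CPM in score-high cells, 117 of which held it, and at 23.8 CPM in the others. A cell could enter the set on as few as 2 of the 5 genes.

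A gene left out of the score shows how far the other 4 carry it along. Cells chosen on the other 4 genes held Tbx6 at 26.4 CPM against 7.46 CPM in the rest, a ratio of 3.54 (2.78 to 4.46). In the same way Hoxb1 was 3.33-fold higher (2.81 to 3.92), Cited1 3.21-fold (2.85 to 3.61), Rspo3 2.14-fold (1.98 to 2.30) and Crabp1 1.54-fold (1.28 to 1.84). Crabp1 was followed least by the other 4 genes. These 150 cells shared 131 cells with the full score when Tbx6 was left out, 119 without Crabp1, 117 without Hoxb1, 108 without Cited1 and 99 without Rspo3.

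Depth and quality were close in both sets. Score-high cells had a median of 23266.5 UMIs (6480 to 64446), 4210 genes and 2.90% mitochondrial UMIs, and the other EB cells a median of 25785.5 UMIs (6233 to 99304), 4423.5 genes and 2.84%. The highest-scoring cell had 6480 UMIs, the fewest of the score-high cells, and a score from few UMIs is coarse. When all cells were first thinned to 6000 UMIs, 99 of the 150 cells were chosen again. Over all EB cells, 15.5% held a UMI of Tbx6, 69.2% of Rspo3, 56.2% of Dll3, 49.0% of Hand1 and 20.7% of Hoxb2. Empty droplets of the EB library (barcodes after the first 10000 by UMIs, up to rank 50000, with 252 UMIs each) hold free RNA, and the share expected to hold a UMI was 0.177% for Tbx6, 1.43% for Rspo3, 0.846% for Dll3, 3.20% for Hand1 and 0.474% for Hoxb2. As levels, EB cells and empty droplets were close for some genes: 138 CPM and 129 CPM for Hand1, and 17.0 CPM and 18.8 CPM for Hoxb2. For Dll3 the levels were 83.1 CPM in EB cells and 33.7 CPM in empty droplets, and for Isl1 17.3 CPM and 10.7 CPM. The part of free RNA in the differences below was not tested. Scrublet marked 3 EB cells as doublets (0.16%), none of them score-high. A share this low may mean that the caller did not work on these cells, which was not tested, and doublets may remain. The 2 libraries shared 2 cell barcodes.

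Beyond the 5 score genes, 10446 genes with at least 100 UMIs over all EB cells were compared. Of these, 137 (1.31%) were at least 2-fold higher in score-high cells and 404 (3.87%) at least 2-fold lower, with a median log2 ratio of -0.01. Counts of list members below are to be read against these shares. The label of posterior and paraxial mesoderm was borne out in part only. The Notch ligand genes of that identity were higher. Anterior Hox genes were also higher, but they were not particular to it. Hox groups 1 to 4 without Hoxb1 were seen in 54.7% of score-high cells and 57.3% of allantois cells (a set described below). Several defining presomitic and somite genes had few or 0 UMIs in both sets. Isl1 and Hand1 of lateral and cardiac mesoderm were higher as well, so the cells are called by their rule here.

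Dll3, a divergent Notch ligand of the presomitic mesoderm (chr7:28293553-28302238, minus strand), was the leading gene of the paraxial list outside the score. It stood at 201 CPM in score-high cells and 74.2 CPM in the others, 2.71-fold higher (2.49 to 2.93). In single score-high cells it ran from 0 in 33 cells through a median of 133 CPM to 1887 CPM, and in the others the median was 31.6 CPM and the highest 1797 CPM, so the sets overlapped over nearly their whole range. With every cell thinned to 6000 UMIs, Dll3 was seen in 53.3% of score-high cells (45% to 61.5%) and 28.1% of the others (26.0% to 30.3%). Without thinning the shares were 78.0% and 54.3%.

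Of the 18 genes of the presomitic and paraxial list outside the score, 8 reached 100 UMIs, 3 of these were at least 2-fold higher and 0 lower, with a median log2 ratio of 0.78. Dll1, the activating Notch ligand, was at 10.3 CPM in score-high cells and 4.35 CPM in the others (2.38-fold, 1.63 to 3.39). Lfng, the glycosyltransferase that modulates Notch in each clock cycle, was at 12.9 CPM and 6.11 CPM (2.10-fold, 1.51 to 2.88). Mesp2, which sets the somite boundary, was at 55.1 CPM and 31.1 CPM (1.77-fold), and the receptor gene Notch1 at 29.1 CPM and 17.6 CPM (1.66-fold). Tcf15, a factor of the formed somite, was at 5.59 CPM in score-high cells and 9.47 CPM in the others, 1.69-fold lower, and Pcdh8 and Fgf17 were within 1.5-fold. Among the EB clusters described below, Tcf15 stood out only in cluster 11, the naive-gene cluster, which held 0 score-high cells. Against nascent mesoderm cells (a set described below) the Tcf15 ratio had an interval that held 1 (0.91, 0.48 to 1.71). When the other EB cells were taken only from clusters with at least 10% of the score-high cells, 0 genes of the list were 2-fold higher, the log2 ratio was 0.56 for Dll3 and 0.17 for Dll1, and Mesp1 (below) turned to -0.10. The other 10 members had few UMIs in both sets. Msgn1, the master gene of presomitic mesoderm, had 4 UMIs in score-high cells and 10 in the others (5.27-fold, 1.21 to 18.3), and Foxc2 had 11 and 34 (4.26-fold, 1.95 to 8.61). Foxc1 had 14 and 66 UMIs (2.79-fold, 1.45 to 5.02) and Hes7, the clock oscillator, 12 and 66 (2.39-fold, 1.18 to 4.47). Intervals that held 1 were those of Meox1 (1 UMI and 21 UMIs), Pax3 (1 UMI and 11 UMIs) and Ripply2 (2 UMIs and 8 UMIs). Uncx of the somite had 0 UMIs in score-high cells, an upper limit of 1.03 CPM, and 6 in the others.

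Aldh1a2, which makes retinoic acid in the somites, had 24 UMIs in score-high cells and 34 in the others, or 6.71 CPM and 0.72 CPM (9.30-fold, 5.27 to 16.1). It was seen in 8.67% of score-high cells and 1.74% of the others, and 62.5% of the score-high UMIs lay in 5 cells. Outside cluster 4 (clusters are described below) the log2 ratio over the other EB cells was -0.33, against 3.22 over all score-high cells. The value outside cluster 4 rests on very few UMIs, so no change of direction can be read from it. Other genes of retinoic acid handling showed no such difference: of 8 compared, 0 were 2-fold higher and 1 was lower, Dhrs3 (1.12 CPM and 2.70 CPM, from 4 UMIs in score-high cells). The breakdown enzyme gene Cyp26a1 stood at 317 CPM in score-high cells and 231 CPM in the others (1.37-fold).

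Isl1, a LIM-homeobox factor of cardiac progenitors (chr13:116298281-116309689, minus strand), had the widest difference of the lateral list. It was at 69.3 CPM in score-high cells and 13.4 CPM in the others, 5.19-fold higher (4.47 to 6.02). A UMI was seen in 62.7% of score-high cells and 19.0% of the others, and in 24.0% (17.4% to 31.6%) and 6.19% (5.10% to 7.43%) after thinning. Hand1, a basic helix-loop-helix factor of lateral and extraembryonic mesoderm, was at 252 CPM and 130 CPM (1.94-fold, 1.81 to 2.08), with a median score-high cell of 147 CPM and a median other cell of 0. Bmp4 was at 92.3 CPM and 58.8 CPM (1.57-fold) and Foxf1 at 21.2 CPM and 16.3 CPM (1.31-fold). Of the 9 lateral and cardiac genes compared, Isl1 alone was 2-fold higher, and Hand2 was lower (2.24 CPM and 4.90 CPM, from 8 UMIs in score-high cells). The later cardiac gene Nkx2-5 had 5 UMIs in score-high cells, and Tbx5 and Gata5 had 0. Of the allantois list 0 of 6 genes were 2-fold higher, 2 were at least 1.5-fold higher and 1 was 2-fold lower. The other 7 members were under 100 UMIs over all EB cells. Tbx4, Pitx1 and Hoxa11 had 0 UMIs in score-high cells. They were rare in the other EB cells too, where single cells reached at most 29.5, 67.6 and 44.1 CPM and the median was 0. These 0 values therefore do not set score-high cells apart from allantois cells.

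**Figure D2:**
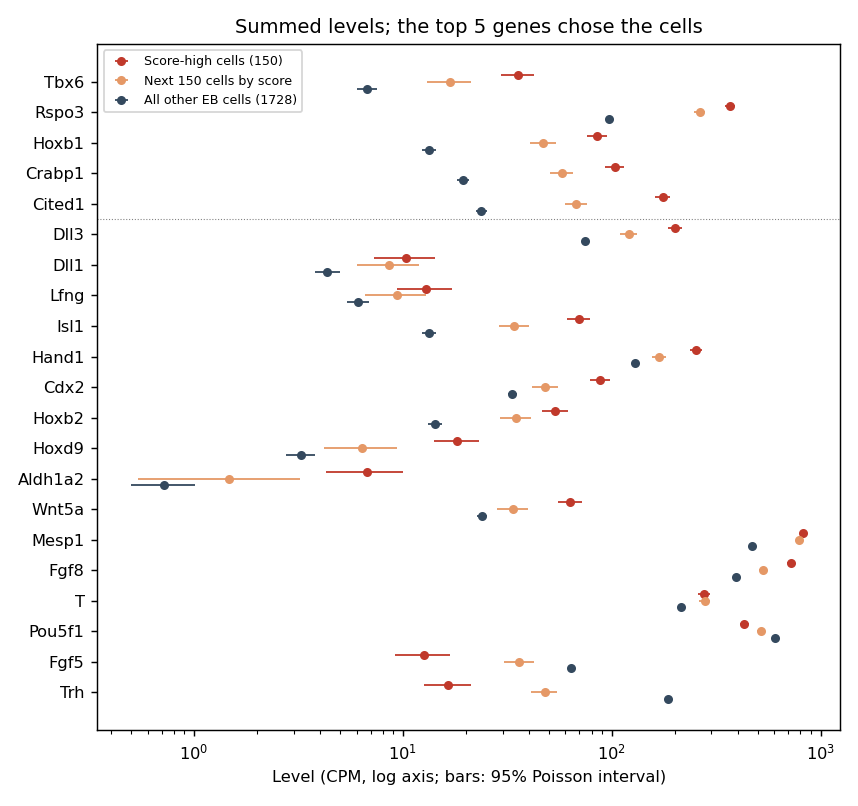
Level of 21 genes in CPM (log axis) in score-high cells, in the next 150 cells by score and in all other EB cells, with 95% Poisson intervals. The 5 genes above the dotted line chose the cells. Dll3, Isl1, Cdx2, Hoxb2 and Wnt5a lie highest in score-high cells, lower in the next 150 and lowest in the other EB cells, while Fgf5 and Trh run in the opposite order.

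The anterior Hox genes were higher with Hoxb1. Of 38 Hox genes outside the score only 4 reached 100 UMIs, and 3 of these were at least 2-fold higher. Hoxb2, next to Hoxb1 in its cluster (chr11:96350525-96354012, plus strand), was at 53.4 CPM in score-high cells and 14.2 CPM in the others (3.75-fold, 3.18 to 4.41). Hoxd9 was at 18.2 CPM and 3.25 CPM (5.60-fold, 4.12 to 7.53), with 55.4% of its score-high UMIs in 5 cells. Hoxd1 was at 1.96 CPM and 2.74 CPM, from 7 UMIs in score-high cells. Summed by group without Hoxb1, groups 1 to 4 stood at 75.2 CPM in score-high cells and 21.5 CPM in the others, a ratio of 3.50 (3.05 to 4.01), groups 5 to 8 at 9.51 CPM and 2.40 CPM (3.96, 2.62 to 5.86) and group 9 at 18.7 CPM and 4.16 CPM (4.50, 3.36 to 5.97). Groups 10 to 13 were at 1.4 CPM and 1.27 CPM, a ratio of 1.10 (0.34 to 2.71), so at this depth no difference was seen in the last groups. In score-high cells 2 of these sums rest mostly on 1 gene. Hoxb2 gave 191 of the 269 UMIs of groups 1 to 4, and Hoxd9 gave 65 of the 67 of group 9. Groups 5 to 8 held 34 UMIs, in 16 of the score-high cells. Hoxb2 overlaps Hoxb3os on the other strand, and whether the authors' counting used strand is not given in the sources used here, so its count is uncertain by the share of that RNA. Among the proteins that bind DNA together with HOX factors, the genes Meis2 (76.3 CPM and 38.2 CPM, just under 2-fold) and Meis3 (43.3 CPM and 23.7 CPM, 1.83-fold) were higher, 0 of 6 by 2-fold, and Pbx2 and Pbx3 were within 1.05-fold.

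**Figure D3:**
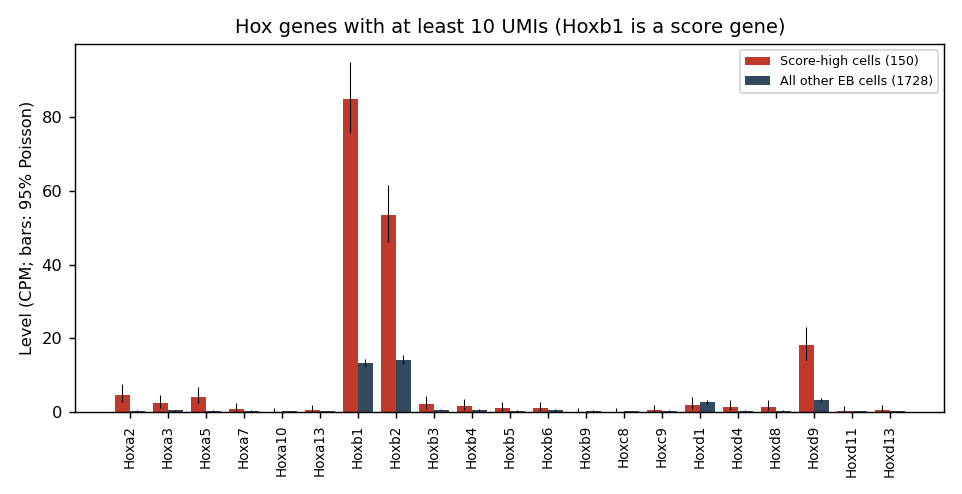
Summed level in CPM of Hox genes with at least 10 UMIs over all EB cells, 1 gene left out, in score-high cells (left bar of each pair) and all other EB cells (right bar), with 95% Poisson intervals. Hoxb1, a score gene, Hoxb2 and Hoxd9 stand above the rest, at 85.0, 53.4 and 18.2 CPM in score-high cells, and genes of groups 10 to 13 lie near 0 in both sets.

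The caudal epiblast list was mixed. Cdx2, a homeobox activator of posterior Hox genes, was at 87.8 CPM in score-high cells and 33.4 CPM in the others (2.63-fold, 2.32 to 2.97) and the growth factor gene Fgf8 at 719 CPM and 391 CPM (1.84-fold, 1.76 to 1.92). T, the streak and notochord factor, differed less (277 CPM and 216 CPM, 1.28-fold). Sox2, which marks neuromesodermal and neural cells and is also on the epiblast list, was at 7.55 CPM and 24.5 CPM, 3.24-fold lower. It stood out in clusters 3, 5 and 11 (described below), of which 3 and 11 were led by epiblast and naive genes. Against nascent mesoderm cells its ratio had an interval that held 1 (0.81, 0.47 to 1.36). The WNT target Sp5 was at 61.5 CPM and 125.5 CPM, 2.04-fold lower. Cdx1 was at 3.08 CPM and 5.67 CPM, while Cdx4 and Wnt3a had 8 and 10 UMIs in score-high cells. In all, 1 of 13 genes compared was 2-fold higher and 2 were lower.

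Streak and nascent mesoderm genes parted in the same way. Mesp1, the first factor of cardiac and cranial mesoderm, was at 827 CPM in score-high cells and 470.5 CPM in the others (1.76-fold, 1.69 to 1.83), and Snai1, which drives the epithelial to mesenchymal transition, at 101 CPM and 59.3 CPM (1.70-fold). Mixl1 was at 143 CPM and 187 CPM (1.31-fold lower), Eomes at 86.1 CPM and 148.4 CPM (1.72-fold lower) and Nodal at 4.47 CPM and 9.49 CPM (2.12-fold lower). Of the 14 genes, 0 were 2-fold higher and Nodal alone was 2-fold lower.

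In the signalling lists, Notch genes were higher most often: 4 of 12 compared were at least 2-fold higher and 0 lower. These were Dll3, Dll1, Lfng and the coactivator gene Maml3 (10.3 CPM and 4.03 CPM). Dll3, Dll1 and Lfng are also the 3 genes counted for the paraxial list above, so the counts of both lists rest on the same genes. The targets Hes1 (154 CPM and 126 CPM, 1.23-fold) and Nrarp (1.05-fold) stood close to the others. Of 27 WNT genes, 3 were higher and 6 lower. Wnt5a, a ligand of tail elongation, was at 63.2 CPM in score-high cells and 23.9 CPM in the others (2.64-fold, 2.28 to 3.05) and the secreted inhibitor gene Sfrp1 at 13.1 CPM and 5.94 CPM (2.21-fold). The receptor gene Lgr5 was lower, at 0.84 CPM from 3 UMIs and 2.44 CPM. Of 20 BMP and TGF-beta genes, Nog (9.23 CPM and 3.20 CPM, 2.88-fold) and Bmper (20.97 CPM and 9 CPM, 2.33-fold), both extracellular BMP modulators, were 2-fold higher and 2 genes were lower, Bmp5 and Nodal. No FGF pathway gene was 2-fold higher of 18, and Fgf5 was lower.

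Genes of pluripotent and of endoderm cells were lower. Of 12 epiblast genes 9 were at least 2-fold lower, with a list median log2 ratio of -1.42. Fgf5 was at 12.6 CPM in score-high cells and 64.1 CPM in the others, 5.09-fold lower, Utf1 at 2.24 CPM and 36.3 CPM, 16.2-fold lower, and the methyltransferase gene Dnmt3b at 74.1 CPM and 162 CPM, 2.18-fold lower. Pou5f1, the core pluripotency factor, differed least (430 CPM and 603 CPM, 1.4-fold lower) and was seen in 91.3% of score-high cells. Of 7 naive pluripotency genes compared 4 were lower, among them Dppa5a (279 CPM and 732 CPM), and of 7 endoderm and node genes 5 were lower. Trh was at 16.5 CPM and 186 CPM, 11.3-fold lower, and Cer1 had 0 UMIs in score-high cells and 449 in the others, at least 11.4-fold lower against a floor of 3 UMIs. Of 8 hemangiogenic genes compared 3 were lower (Fli1, Sox17 and Runx1) and 0 higher; the receptor gene Kdr was at 43.1 CPM and 67.5 CPM, 1.57-fold lower, and Etv2 at 90.0 CPM and 114 CPM, 1.26-fold lower. Of 15 S phase and 15 mitosis genes 0 differed 2-fold.

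**Figure D4:**
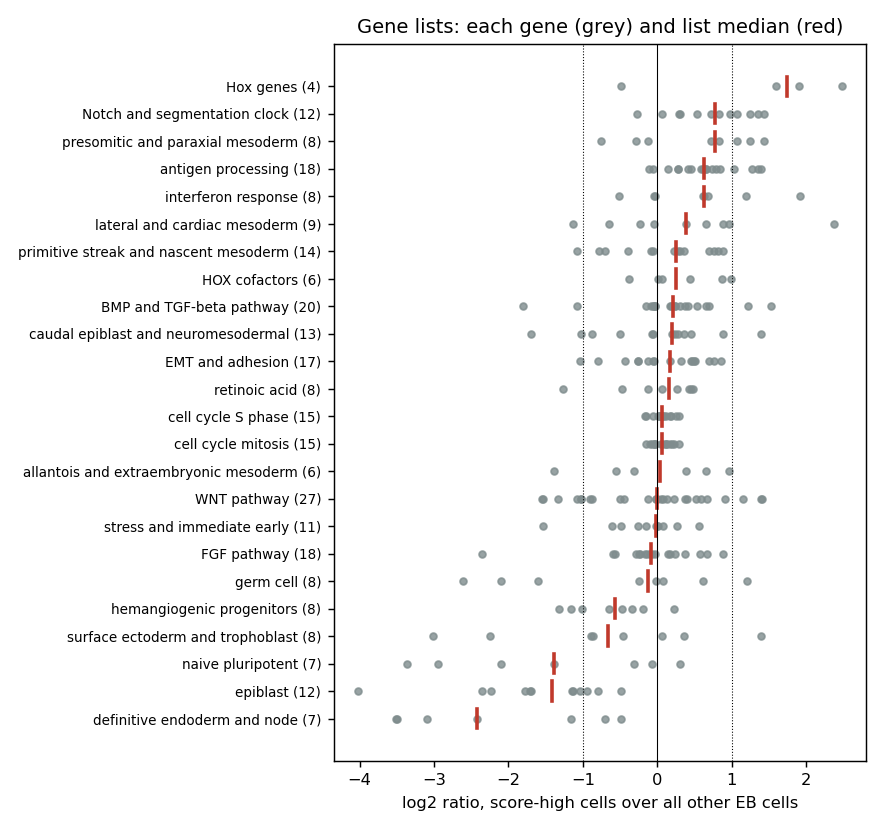
Log2 ratio of score-high cells over all other EB cells for each gene of a list (grey) and the median of the list (red), with the number of genes compared in brackets and dotted lines at 2-fold. Lists with at least 4 compared genes are shown, from the Hox list at the top with a median of 1.75 to the definitive endoderm and node list at the bottom with -2.43.

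The 12 highest ratios among genes of at least 100 CPM in the higher set, the score genes left out, began with Pdlim4, a PDZ and LIM domain protein gene (146 CPM in score-high cells and 51.3 CPM in the others, 2.86-fold, 2.59 to 3.14), Dll3 and Psmb8, and held Hand1, Fgf8, Mesp1 and Tgfb1. Psmb8, a subunit of the immunoproteasome that cuts peptides for antigen display, was at 207 CPM and 78.7 CPM (2.63-fold, 2.43 to 2.85), and Psme2 and Tapbp of the same pathway were also among the 12. A list of antigen processing genes was therefore drawn up after these values were seen, and its count is a description. The list includes Psmb8, Psme2 and Tapbp, which prompted it, so its counts were in part fixed in advance. Of its 18 compared genes 4 were 2-fold higher, Psmb8, Psmb9 (18.5 CPM and 7.20 CPM), Tap2 (12 CPM and 5.90 CPM) and Erap1 (16.8 CPM and 6.92 CPM), and 10 were at least 1.5-fold higher, where 4.78% of all genes were, and 0 were 1.5-fold lower, where 8.85% were. The class I genes themselves differed little, H2-K1 1.10-fold and B2m 1.21-fold, and H2 genes have close copies that share reads. Of a second list added in this way, of interferon genes, 8 were compared, of which 2 were 2-fold higher, 5 at least 1.5-fold higher and 0 1.5-fold lower, with a median log2 ratio of 0.62. Isg15 was at 40.5 CPM and 10.8 CPM (3.77-fold, 3.11 to 4.54), but 57.2% of its score-high UMIs lay in 5 cells. Bst2 was at 49.2 CPM and 70.0 CPM (1.42-fold lower). Psmb9 overlaps Tap1 and Tapbp overlaps another gene on the other strand.

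At the low end, the 12 genes named by the same rule were led by Trh, the metallothionein gene Mt1 (27.1 CPM in score-high cells and 102 CPM in the others, 3.76-fold lower) and Dppa5a, and held Igfbp2 (80.2 CPM and 183 CPM), the glucose transporter gene Slc2a3 (63.5 CPM and 132 CPM) and the epithelial adhesion gene Epcam (60.4 CPM and 124 CPM, 2.06-fold lower).

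The score-high cells did not form 1 cluster. Clustering of all EB cells gave 12 clusters, and 76 of the 150 cells fell in cluster 4, led by Car3, Isl1, Sct, Crabp1, Tgfb2, Hoxb1 and Pdlim4, with Hand1 and Cited1 also among its 10 leading genes, where they made up 41.5% of 183 cells. A further 21 were in cluster 1 (led by Frzb, Lhx1 and Lefty2), 20 in cluster 5 (led by Sprr2a3, Lefty1, Dnd1, Cdx2 and Isg15, with Psmb8 also among its 10 leading genes) and 16 in cluster 0 (led by Mesp2, Apln and Fst). The other 17 cells were spread over 6 clusters, with 5 in cluster 9, which was led by Fli1, Gadd45g and Tal1. The epiblast-gene cluster 3 (Nefl, Sfn, Pou3f1) held 0 of its 189 cells and the naive-gene cluster 11 (Rhox6, Dppa3, Zfp42) 0 of its 57. The score genes and every other gene named for these clusters were open to the clustering, so levels by cluster restate in part how the clusters were found and are given as a description.

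Hand1 stood at 334 CPM (308 to 362) in those of cluster 4, 115 CPM in cluster 1, 133 CPM in cluster 5 and 61.7 CPM in cluster 0. Isl1 was at 89.2 CPM in cluster 4 and 79.8 CPM in cluster 1, with overlapping intervals, against 42.8 CPM in cluster 5 and 26.8 CPM in cluster 0. Tbx6, a score gene, was at 61.7 CPM in cluster 0, 47.1 CPM in cluster 1, 36.4 CPM in cluster 4 and 15.8 CPM (6.33 to 32.5) in cluster 5. Dll3 was at 287 CPM in cluster 0 and 299 CPM in cluster 1, 219 CPM in cluster 4 and 99 CPM in cluster 5. Cluster 0 also held the most Hoxb1 (172 CPM, 132 to 219) and Mesp1 (1413 CPM).

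The 20 score-high cells of cluster 5 had 184.5 CPM of Cdx2 (147 to 229), against 84.8 CPM in cluster 4, 72.4 CPM in cluster 0 and 8.19 CPM in cluster 1, and 1332 CPM of Fgf8, against 317 to 744 CPM in the other 3. They had 519.8 CPM of Psmb8 (455 to 591), against 57.3 to 176 CPM, and 167 CPM of Isg15 (131 to 209), against 2.05 to 25.6 CPM. Cluster 5 as a whole was higher in the germ cell genes Prdm1, Prdm14, Tfap2c, Dnd1 and Ifitm3. With these 20 cells left out, the log2 ratio of score-high cells over the other EB cells was 1.05 for Psmb8 (1.4 with them), 1.07 for Isg15 (1.91 with them), 1.15 for Cdx2 (1.4 with them) and 0.69 for Fgf8 (0.88 with them). With the 76 cells of cluster 4 left out, it was 0.35 for Hand1 (0.96 with them), 1.86 for Isl1 (2.38 with them) and 1.29 for Dll3 (1.44 with them). Both omissions were added after the data were seen. Hoxd9 was seen in clusters 4 (20.1 CPM) and 5 (18.0 CPM) and was at 2.05 CPM in cluster 1 and 0 UMIs in cluster 0. Aldh1a2 was at 12.5 CPM in cluster 4, 2.05 CPM, from 1 UMI, in cluster 1 and 0 UMIs in clusters 5 and 0. Kdr was highest in cluster 1 (73.7 CPM) and had 0 UMIs in cluster 5.

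**Figure D5:**
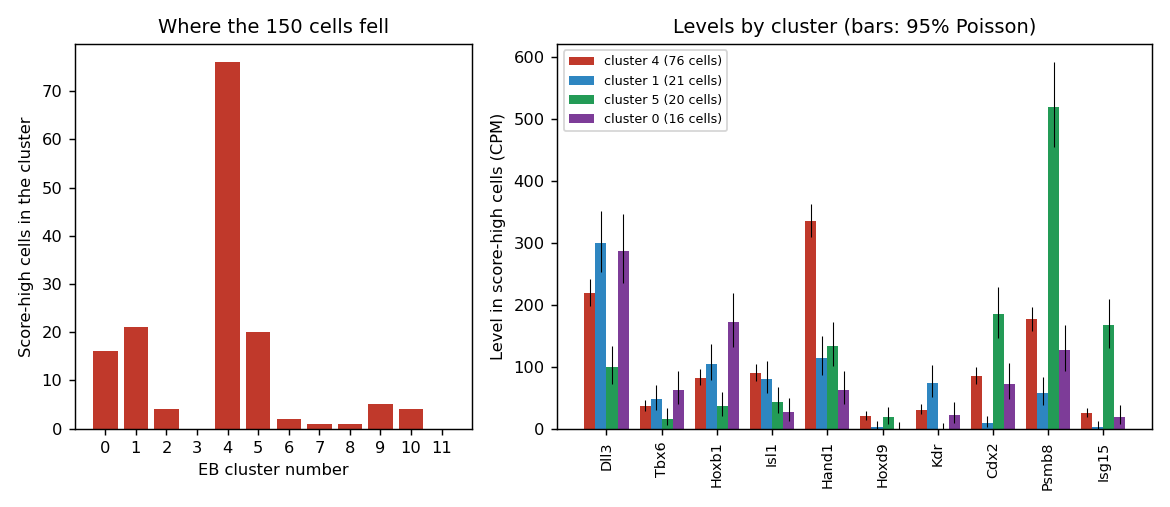
Left, the number of score-high cells in each of the 12 EB clusters. Right, the summed level in CPM of 10 genes in the score-high cells of the 4 clusters that hold most of them, with 95% Poisson intervals: Hand1 is highest in cluster 4 (334 CPM), Psmb8 in cluster 5 (519.8 CPM) and Hoxb1 in cluster 0 (172 CPM).

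Within clusters part of the difference was gone. Between score-high cells and the other cells of cluster 4, Hand1 was at 334 CPM and 349 CPM (0.96-fold, 0.86 to 1.06), Hoxd9 at 20.1 CPM and 22.3 CPM (0.90-fold) and Mesp1 at 847 CPM and 794 CPM (1.07-fold). Isl1 remained higher there, at 89.2 CPM and 44.5 CPM (2.00-fold, 1.59 to 2.55), as did Hoxb2 (57.1 CPM and 27.3 CPM, 2.09-fold) and Dll3 (219 CPM and 125 CPM, 1.75-fold). Dll3 was also higher in score-high cells of cluster 0 (1.97-fold) and cluster 1 (1.68-fold), and in cluster 5 its interval held 1 (1.39-fold, 0.99 to 1.91). Hoxb2 was higher in all 4 clusters, from 2.09-fold in cluster 4 to 11.3-fold in cluster 5.

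Score-high cells with Tbx6 differed from those without. The 67 cells with a Tbx6 UMI (median 25718 UMIs) had 258 CPM of Dll3 and the 83 without (median 20297 UMIs) 148 CPM, 1.75-fold (1.5 to 2.04). Epha4, an ephrin receptor gene of the somite boundary, was at 63.9 CPM and 23.7 CPM (2.70-fold, 1.89 to 3.92). In the opposite direction, Bmp4 was at 48.3 CPM with Tbx6 and 133 CPM without (0.36-fold, 0.28 to 0.47), Hand1 at 183 CPM and 317 CPM (0.58-fold) and Hoxd9 at 6.4 CPM and 29.1 CPM (0.22-fold). Because the score is a sum, a score-high cell without 1 of its genes needs more of the other 4, which shapes these splits and those that follow, and a gene of few UMIs is missed more often in a shallow cell.

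The 90 cells with Hoxb1 (median 24712.5 UMIs) had 76.2 CPM of Hoxb2, against 14.4 CPM in the 60 without (median 22437 UMIs), 5.29-fold (3.29 to 9), and Mesp2 was at 70.4 CPM and 28.8 CPM (2.44-fold). The 89 cells with Crabp1 (median 24264 UMIs) were higher than the 61 without (median 21858 UMIs) in Hand1 (310 CPM and 155 CPM, 1.99-fold) and Foxf1 (28.6 CPM and 8.97 CPM, 3.19-fold, 1.71 to 6.49), and lower in Psmb8 (149 CPM and 305 CPM, 0.49-fold). The 117 cells with Cited1 (median 24225 UMIs) were higher than the 33 without (median 20404 UMIs) in Psmb8 (237 CPM and 88.5 CPM, 2.68-fold) and Isg15 (48.9 CPM and 7.02 CPM, 6.96-fold).

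Over all 1878 EB cells, score-high cells included, each thinned to 6000 UMIs, the same genes were counted without use of the score. Dll3 was in 64.9% of the 74 cells with Tbx6 (52.9% to 75.6%) and 28.7% of those without. For Epha4 the shares were 21.6% (12.9% to 32.7%) with Tbx6 and 13.8% (12.2% to 15.5%) without, which overlap. Hand1 and Bmp4 did not repeat the split among score-high cells beyond counting error: Hand1 was in 37.8% of cells with Tbx6 (26.8% to 49.9%) and 29.4% of those without (27.3% to 31.6%), in the opposite direction, and Bmp4 in 13.5% (6.68% to 23.5%) and 20.3% (18.5% to 22.3%). Hoxd9 was in 4.05% (0.844% to 11.4%) of cells with Tbx6 and 1.94% (1.36% to 2.69%) of those without.

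Hoxb2 was in 23.1% of the 147 cells with Hoxb1 (16.6% to 30.8%) and 6.07% of those without (4.99% to 7.30%), and Mesp2 in 23.8% (17.2% to 31.5%) and 12.1% (10.6% to 13.8%). Of the 139 cells with Hoxb2, 55.4% held Hand1 (46.7% to 63.8%), against 27.7% of those without. For Bmp4 the shares were 36.7% with Hoxb2 and 18.7% without. The Dll3 intervals with and without Hoxb2 overlapped (29.4% to 46.0% and 27.4% to 31.8%). Hand1 was in 53.4% of the 208 cells with Crabp1 (46.3% to 60.3%) and 26.8% of those without, and Foxf1 in 13% (8.73% to 18.3%) and 6.59% (5.44% to 7.88%). Psmb8 was in 27.9% of cells with Crabp1 and 27.8% of those without, unlike the split among score-high cells. Among the 279 cells with Cited1, Psmb8 was in 39.4% (33.7% to 45.4%), against 25.8% without (23.7% to 28.0%), and Isg15 in 10.4% (7.07% to 14.6%), against 4.88% (3.87% to 6.05%).

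Between the score genes, every share was higher in cells with the other gene than without, in some pairs within counting error. Rspo3 was in 55.4% of cells with Tbx6 and 40.6% of those without, and in 57.1% of cells with Hoxb1 and 39.8% of those without. Hoxb1 was in 17.6% of cells with Tbx6 (9.70% to 28.2%) and 7.43% of those without (6.26% to 8.74%), and Cited1 in 28.4% (18.5% to 40.1%) and 14.3% (12.7% to 16.0%). Pairs whose intervals overlapped included Crabp1 with and without Rspo3 (12.3% and 10.2%) and with and without Cited1 (14.3% and 10.5%).

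Against the next 150 cells by score, 16 of 5876 genes with at least 100 UMIs in both sets together were 2-fold higher in score-high cells (0.272%) and 7 lower (0.119%). Isl1 was among them, at 69.3 CPM and 34.2 CPM (2.03-fold, 1.64 to 2.51), while Dll3 was at 201 CPM and 120 CPM (1.67-fold) and Cdx2 at 87.8 CPM and 48.0 CPM (1.83-fold). Mesp1 (827 CPM and 791 CPM) and T (277 CPM and 279 CPM) stood close in both. The cells just outside the threshold thus held most of these genes at levels between those of score-high cells and of all other EB cells.

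A further 3 sets of 150 EB cells, each chosen after removing the score-high cells by its own 5 genes, were set beside them. The sets were fixed by these genes, and how similar each is to the score-high cells was not measured. Against nascent mesoderm cells (chosen by Mixl1, Mesp1, Eomes, Fgf8 and T), 72 genes were 2-fold higher in score-high cells (1.22%) and 43 lower (0.729%). Bmp4 was at 92.3 CPM in score-high cells and 15.0 CPM in nascent mesoderm cells (6.15-fold, 4.67 to 8.23), Hand1 at 252 CPM and 47.7 CPM and Isl1 at 69.3 CPM and 19.7 CPM, while Dll3 differed less (201 CPM and 153 CPM) and Mesp2 was lower in score-high cells (55.1 CPM and 97.3 CPM). The ratio had an interval that held 1 for Dll1 (10.3 CPM and 13.8 CPM) and for Meis2 (76.3 CPM and 82.8 CPM). The same held for Lfng (12.9 CPM and 11.1 CPM) and Notch1 (29.1 CPM and 28.5 CPM), while Maml3 was higher in score-high cells (10.3 CPM and 5.65 CPM). Against hemangiogenic cells (Kdr, Etv2, Tal1, Lmo2 and Gata2), 162 genes were higher (2.77%) and 124 lower (2.12%), with Cdx2 at 87.8 CPM in score-high cells and 6.76 CPM in hemangiogenic cells, Meis2 at 76.3 CPM and 8.76 CPM, Isl1 at 69.3 CPM and 8.51 CPM and Dll3 at 201 CPM and 33.8 CPM. Against allantois cells (Hand1, Tbx4, Pitx1, Foxf1 and Bmp4), 142 genes were higher (2.36%) and 183 lower (3.04%): Mesp2 was at 55.1 CPM in score-high cells and 1.93 CPM in allantois cells, Dll3 at 201 CPM and 12 CPM, and Meis2 at 76.3 CPM and 27.2 CPM. Hox groups 1 to 4 without Hoxb1 were at 75.2 CPM in score-high cells, 62.4 CPM in allantois cells, 20.4 CPM in nascent mesoderm cells and 19.5 CPM in hemangiogenic cells. Isl1 was higher in score-high cells than in each of the 3 sets. With the score-high cells kept in the ranking, 12 of them would have been among the 150 chosen by the nascent mesoderm genes, 9 by the hemangiogenic and 16 by the allantois genes. These were 8%, 6% and 10.7% of the score-high cells. A set of 150 cells taken from the 1878 without regard to the score would on average hold a share close to these.

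In the YS library 641 of 775 cells scored 0, and 3 reached the EB threshold of 0.547. All 3 did so on Cited1 alone, with 41, 36 and 33 UMIs and 0 UMIs of the other 4 genes. Over all YS cells Tbx6 had 1 UMI and Dll3 9 UMIs, Rspo3 was at 5.50 CPM and Hoxb1 at 0.87 CPM, whereas Cited1 was at 32.9 CPM and Hand1 at 99.7 CPM. The score therefore picked out no cell with Tbx6 or Hoxb1 in the yolk sac.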

How the data were processed

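The authors deposited raw UMI counts per gene and barcode, 1 table per library, not filtered to cells (737280 barcodes, 33456 gene identifiers). Per the submitters' processing notes the genome build was mm10, with the aligner, counter, annotation and strand setting not given in the sources used here. Coordinates are GENCODE M21, which held 32655 of the identifiers. A cell needed 6172 UMIs in EB or 6537 in YS, which is 10% of the 99th percentile over the top 3000 barcodes, and at most 10% mitochondrial UMIs. In EB 2020 barcodes passed the minimum and 142 failed the mitochondrial limit. The EB library held 73915225 UMIs. Score-high cells summed to 3577065 UMIs and the other EB cells to 47114242.

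UMIs were summed per set and given as CPM, and called means at least 2-fold, among genes with at least 100 UMIs. Named genes were the 12 highest and 12 lowest ratios (at least 100 CPM and 30 UMIs), all genes of 4 lists, the 3 highest and lowest of the others and the comparator genes, each list leaving the score genes out; antigen and interferon genes were chosen after their values were seen. Members, lists and comparisons were chosen with earlier results of these data known. Clusters used 2000 variable genes, 30 components, 15 neighbours and Leiden resolution 1 (scanpy 1.11.5, leidenalg 0.10.2, Python 3.11.15, scipy 1.17.1, seed 1). The calculation of ratios and intervals was tested on simulated data. The alternatives changed the number of cells, the score genes, the filters, the scaling and the rest set. Values of some single genes are not reported here; these genes stay in the counts, sums and medians of their lists.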

Additional observations from a re-analysis of the deposited data

How the results depend on the processing

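Against 137 genes at least 2-fold higher and 404 lower, the score without Rspo3 gave 91 higher, a minimum of 10 UMIs gave 659 and 804, one of 1000 UMIs 15 and 45, no filter 1284 and 804, and a rest set of only the clusters with 10% of the score-high cells 86 and 75. The paraxial list, with 3 genes 2-fold higher, had 1 without Hoxb1 in the score, 1 with the score from thinned cells, 10 at 10 UMIs, 1 at 1000 UMIs, 10 with no filter and 0 with the clustered rest set. The Hox list, with 3, had 15 at 10 UMIs, 0 at 1000 UMIs and 20 with no filter. Epiblast genes 2-fold lower were 9, and 5 with the clustered rest set; naive genes were 4, and 2 at 1000 UMIs. The filters and the rest set change how many genes are compared. Against 10446 in the main setting, 14210 genes were compared at 10 UMIs and 4678 at 1000 UMIs. With no filter 18312 were compared, and with the clustered rest set 8703. Counts from these settings are therefore not like for like. For the score changes and the rest set the cause was not tested. The share of score-high cells with Dll3 was 53.3% thinned to 6000 UMIs, 78.0% unthinned, 40.0% at 3000 UMIs and 27.3% with at least 2 UMIs, that of Isl1 24.0%, 62.7% unthinned and 12% with at least 2 UMIs, and that of Cdx2 30.0%, 54.7%, 18.7% at 3000 UMIs and 12.7% with at least 2 UMIs. Of 525 values of 2-fold genes under 21 alternatives 524 kept their direction and 466 stayed 2-fold. The exception was Aldh1a2, whose log2 ratio was -0.33 in score-high cells outside cluster 4, an alternative added after seeing the data. That value rests on very few UMIs, so it does not show a reversal. Cluster 4 held 76 score-high cells, and 80 at resolution 0.6, 58 at 1.4 and 89 with 1000 variable genes fell in the leading cluster. Scaling by the median of gene ratios shifted log2 ratios by 0.03. No paired analysis was possible because each group had 1 library. At this depth 34 of the 38 Hox genes and 10 of the 18 paraxial genes outside the score were under 100 UMIs. Whether depth or low expression accounts for this was not tested.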
